A study of Mus musculus with 96 samples.

Results

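The annexins and galectins described here were 10 genes, the annexins Anxa1 to Anxa7 and the galectins Lgals1, Lgals3 and Lgals9, chosen by name from the 32594 genes listed in the count tables. All 10 were detected above the low-count filter in every region and time point, so none was left out of any test. They were measured by bulk mRNA sequencing in 96 libraries from adult C57BL/6 male mice, with no genetic modification named in the labels. The mice were 8 to 10 weeks old when obtained, so they were older at sampling. Mice received a controlled cortical impact, a moderate traumatic brain injury (TBI) delivered through a craniectomy, or a sham procedure with anesthesia and a scalp incision but no craniectomy, so opening of the skull and the impact cannot be told apart in any TBI against Sham comparison. Candesartan (CD), an angiotensin II type 1 receptor blocker, was given at 0.1 mg/kg per day, and the vehicle (VH) was saline with sodium carbonate. The first dose was given by injection 6 h after the procedure in all mice. Mice examined at 3 days post-injury (dpi) had further injections at 24 and 48 h, whereas mice examined at 29 dpi carried an osmotic pump from 24 h, so the route of dosing differs between the time points. The 4 groups, with 4 libraries each, were Sham + VH and Sham + CD, which had no injury, and TBI + VH and TBI + CD, and all were sampled in the hippocampus, thalamus and hypothalamus at both times. The labels do not say which libraries of different regions came from the same mouse.

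Annexins are cytosolic proteins that bind negatively charged membrane lipids when calcium rises, and they take part in membrane repair, vesicle traffic and the resolution of inflammation. Galectins are lectins without a signal sequence that bind beta-galactoside sugars on glycoproteins, either outside the cell or on damaged endosomes and lysosomes. In injured brain tissue both families are known from reactive microglia, macrophages and astrocytes, and Anxa5 protein is widely used as a probe for dying cells. Fewer cells of a type and less RNA per cell cannot be told apart in bulk tissue.

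All members are protein-coding genes, placed here on GRCm38 with GENCODE annotation. Anxa1 lies on the minus strand at chr19:20373428-20390944, Anxa2 on the plus strand at chr9:69453620-69491795 and Anxa3 on the plus strand at chr5:96793339-96845966. Anxa4 lies on the minus strand at chr6:86736840-86793584, Anxa5 on the minus strand at chr3:36448923-36475894, Anxa6 on the minus strand at chr11:54979108-55033445 and Anxa7 on the minus strand at chr14:20455260-20480133. Among the galectins, Lgals1 lies on the plus strand at chr15:78926725-78930465, Lgals3 on the plus strand at chr14:47367751-47386160 and Lgals9 on the minus strand at chr11:78962974-78984946. Genes of the count table that overlap members were the microRNA genes Mir7009 at Anxa5 and Mir3109 at Anxa2, on the same strand, and the antisense 1500015L24Rik at Anxa1. Whether counting used strand is not given in the sources used here, so reads of Anxa1 and that antisense gene may be mixed.

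Promoter sequences, the 250 bases before a RefSeq transcript start on GRCm38.p6, were held for 7 of the 10 members, and these 7 had 9 promoters. Anxa3, Anxa6 and Lgals1 were not matched. The stretches of Anxa2, Anxa4 and Lgals9, which rose after injury, are printed because they hold matches to motifs of inflammation-related factors, and that of Anxa7, which did not pass the test after injury, is printed beside them. The promoters of Anxa5 and Lgals3, whose genes also rose, hold none of those motifs and are not printed. Capitals mark the motif matches, and each stretch is cut where the annotated gene begins. The windows are chr9:69453433-69453619 on the plus strand for Anxa2, chr6:86793585-86793834 on the minus strand for Anxa4, chr11:78984947-78985174 on the minus strand for Lgals9 and chr14:20480134-20480383 on the minus strand for Anxa7.
Anxa2: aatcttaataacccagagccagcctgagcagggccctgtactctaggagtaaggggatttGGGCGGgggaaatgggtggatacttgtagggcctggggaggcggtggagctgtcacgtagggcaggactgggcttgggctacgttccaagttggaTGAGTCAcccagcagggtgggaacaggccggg
Anxa4: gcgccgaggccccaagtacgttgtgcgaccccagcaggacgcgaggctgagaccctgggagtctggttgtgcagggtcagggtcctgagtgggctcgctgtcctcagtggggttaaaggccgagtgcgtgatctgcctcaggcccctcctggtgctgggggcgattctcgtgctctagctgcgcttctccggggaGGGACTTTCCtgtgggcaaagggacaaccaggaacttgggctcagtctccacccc
Lgals9: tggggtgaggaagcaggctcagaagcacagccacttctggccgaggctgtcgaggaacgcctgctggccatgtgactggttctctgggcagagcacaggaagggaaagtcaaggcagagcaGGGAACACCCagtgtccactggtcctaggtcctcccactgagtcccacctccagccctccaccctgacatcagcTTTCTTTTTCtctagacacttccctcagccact
Anxa7: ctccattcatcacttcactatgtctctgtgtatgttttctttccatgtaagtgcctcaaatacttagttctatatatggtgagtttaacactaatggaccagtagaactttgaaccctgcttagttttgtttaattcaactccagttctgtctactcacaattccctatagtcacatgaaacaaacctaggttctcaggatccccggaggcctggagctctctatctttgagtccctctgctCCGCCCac

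Both strands were searched for each motif, and positions count back from the transcript start. The AP-1 motif TGANTCA was found in Anxa2 at -95 to -89 and in no other member promoter, against 6.75% of all 32851 promoters of that length. The kappa-B-like letters, GGG and CC around NNTTN, were found in Anxa4 at -55 to -46 and in Lgals9 at -129 to -120, against 4.11% of all promoters. Lgals9 also held the interferon response element letters, GAAA on both sides of NN, at -55 to -46, which are present in 2.98% of all promoters. The STAT letters TTCNNNGAA, present in 7.02% of all promoters, were in none of the 9. The GC box GGGCGG, in 32.7% of all promoters, was found in 4 of the 9, the TATA box TATAAA, in 12.4%, in those of Anxa1 and Anxa2, and the CCAAT box, in 33.8%, in that of Lgals3. These are matches of letters only.

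Total counts ranged from 6663629 to 38589791 per library. Levels are given in CPM, counts scaled to a common library total after TMM normalization, and a gene was called where the Benjamini-Hochberg adjusted p over all genes tested was below 0.05 and the log2 fold change exceeded 0.32 in size. The labelled regions carried their own markers, with summed hippocampal markers of 409.5 to 757.3 CPM in hippocampal libraries at 3 dpi and 147.5 to 188.6 CPM in thalamic ones. Thalamic libraries held hypothalamic markers at 6.95 to 636.7 CPM at 3 dpi, a wide spread beside 705.2 to 1634 CPM in hypothalamic ones. Markers of choroid plexus epithelium, such as Ttr, varied most among hippocampal libraries, from 7.87 to 6527 CPM summed over 10 genes at 3 dpi. Within the TBI + VH group of the hippocampus at 3 dpi, replicate 2 stood apart from the others. It was the lowest of its 4 libraries for 9 of the 10 members, its summed galectin level was 46.7 CPM, and its summed microglial markers were 659.5 CPM, the lowest of the injured libraries. At 29 dpi, replicate 3 of the hippocampal Sham + VH group held hypothalamic markers at 98.9 CPM and replicate 2 held thalamic markers at 236.3 CPM.

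The levels of the members before injury were compared per length of exon, in CPM per kb, in the Sham + VH hippocampus at 3 dpi with all 3 regions scaled together. Anxa6, which binds membrane and cholesterol-rich endosomes, was the most abundant at 46.4 ± 1.70 (SD, n = 4). Anxa5, the phosphatidylserine-binding annexin, followed at 23.6 ± 2.61, Lgals1, the prototype galectin of glia and neurons, at 18.4 ± 3.75 and Anxa7, a calcium-dependent membrane-fusion protein, at 18.0 ± 1.02. The ranges of Anxa5 and Lgals1, and of Lgals1 and Anxa7, overlapped, so their order is within the spread of the libraries. A gap separated these from Anxa2 at 2.92 ± 0.69, Lgals9 at 2.58 ± 0.13 and Anxa3 at 2.31 ± 0.22, which overlapped as neighbours. Lgals3 at 1.21 ± 0.37 and Anxa4 at 0.97 ± 0.17 overlapped with each other, and Anxa1 was lowest at 0.38 ± 0.21.

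Regional differences in sham mice were large for some members. Anxa5 had a mean of 41.9 ± 4.64 CPM in the hippocampus, 87.8 ± 6.33 CPM in the thalamus and 93.2 ± 24.0 CPM in the hypothalamus at 3 dpi (SD, n = 4 each), and every hippocampal library was below every library of the other regions. Its log2 difference between hippocampus and thalamus was -1.07 ± 0.15 (SE; adjusted p = 4.29e-05, edgeR's quasi-likelihood test), and at 29 dpi it was again -1.07, with SE 0.06. Lgals1 ran the other way, at 16.7 ± 3.39 CPM in the hippocampus, 10.2 ± 3.73 CPM in the thalamus and 4.13 ± 0.94 CPM in the hypothalamus. Its log2 difference between hippocampus and hypothalamus was 2.02 ± 0.25 (adjusted p = 1.55e-05) at 3 dpi and 1.83 ± 0.27 at 29 dpi.

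**Figure D1:**
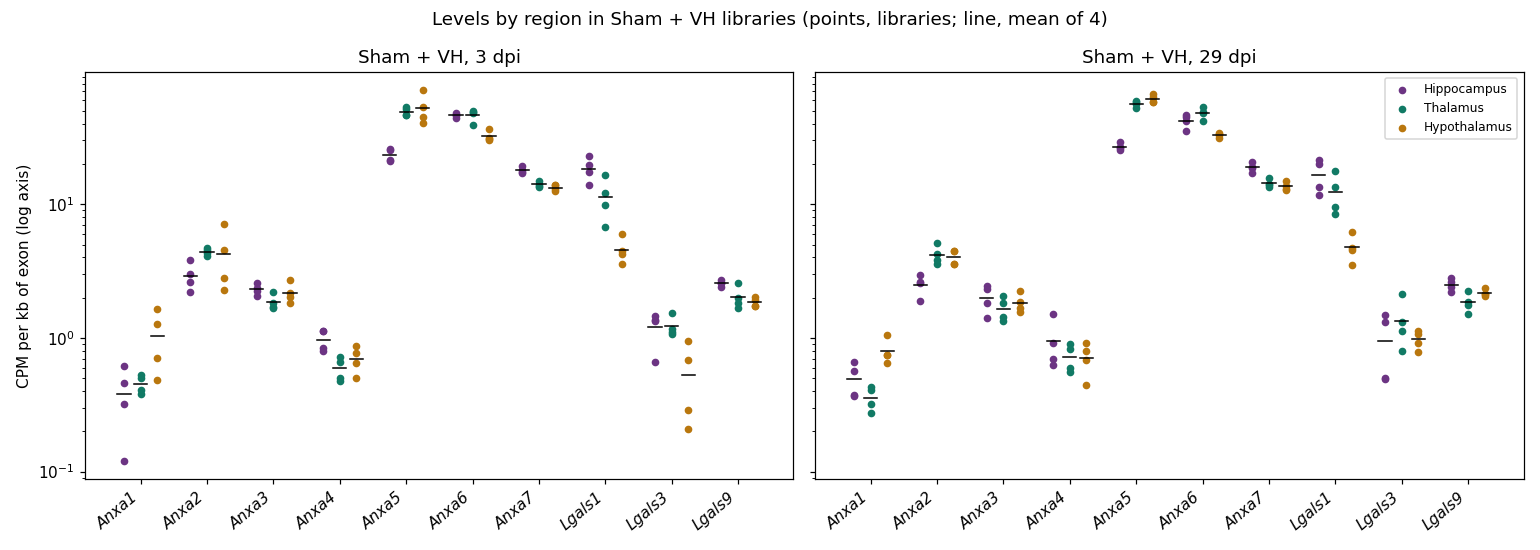
Levels of the 10 members in Sham + VH libraries of the 3 regions at 3 dpi (left) and 29 dpi (right), in CPM per kb of exon on a log axis. Points are libraries and lines are means of 4; Anxa5 is lowest in the hippocampus and Lgals1 is lowest in the hypothalamus at both times.

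Between hippocampus and thalamus at 3 dpi, 4 members were called higher in the hippocampus (Anxa4, Anxa7, Lgals1 and Lgals9) and 1 lower (Anxa5), where 19.2% of all genes were called higher and 20.3% lower. Between hippocampus and hypothalamus, 5 were higher (Anxa6, Anxa7, Lgals1, Lgals3 and Lgals9) and 2 lower (Anxa1 and Anxa5), against 23.3% and 22.8% of all genes. Between thalamus and hypothalamus, 3 were higher (Anxa6, Lgals1 and Lgals3) and 1 lower (Anxa1), against 13.5% and 13.1%. In the 29 dpi shams, the hippocampus differed from the thalamus in 2 members higher and 2 lower (backgrounds 19% and 20.7%), and from the hypothalamus in 3 higher and 3 lower (22.1% and 23.5%). The thalamus and hypothalamus differed at 29 dpi in 2 members higher and 1 lower, against 16% and 16.8% of all genes. Anxa6, Anxa7 and Lgals1 were called higher and Anxa1 and Anxa5 lower in the hippocampus than in the hypothalamus at both times, whereas the log2 difference of Lgals3 was 1.17 ± 0.39 at 3 dpi and -0.017 ± 0.38 at 29 dpi. The regional comparisons of a time point share libraries with each other. The call of Lgals9 between hippocampus and thalamus at 3 dpi was lost with DESeq2 (adjusted p = 0.055) and with no low-count filter (0.0746). With replicate number as a block, Lgals1 lost its call there (0.0504) and Anxa2 was called lower in the hippocampus, at -0.66 (0.0424). Some calls also turned on 1 library: of 12 fits that each left out 1, this call of Lgals9 was lost in 10 and that of Lgals1 in 4, and between thalamus and hypothalamus Anxa1 lost its call in 8 and Lgals3 in 4. Between hippocampus and hypothalamus Lgals3 lost its call in 3 at 3 dpi, and Anxa1 in 2 and Anxa6 in 1 at 29 dpi.

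Injury was followed by higher levels of 7 of the 10 members in the hippocampus at 3 dpi. In TBI + VH against Sham + VH, these 7 were called higher and no member lower, where 8.99% of the 16756 genes tested were called higher and 1.72% lower. The members were chosen with earlier results of these data known, so the share over all genes is a description and not a test. The 7 were all 3 galectins and the annexins Anxa2, Anxa3, Anxa4 and Anxa5, whereas Anxa1, Anxa6 and Anxa7 did not pass the test. The median log2 fold change was 1.13 over the members and -0.013 over all genes tested. The groups did not overlap for 6 members, against 11.6% of all genes with every TBI + VH library higher. With a score of choroid plexus markers as a covariate, described with the sham groups, the calls of Anxa2, Anxa3, Anxa4 and Lgals3 were lost and 3 members stayed called.

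**Figure D2:**
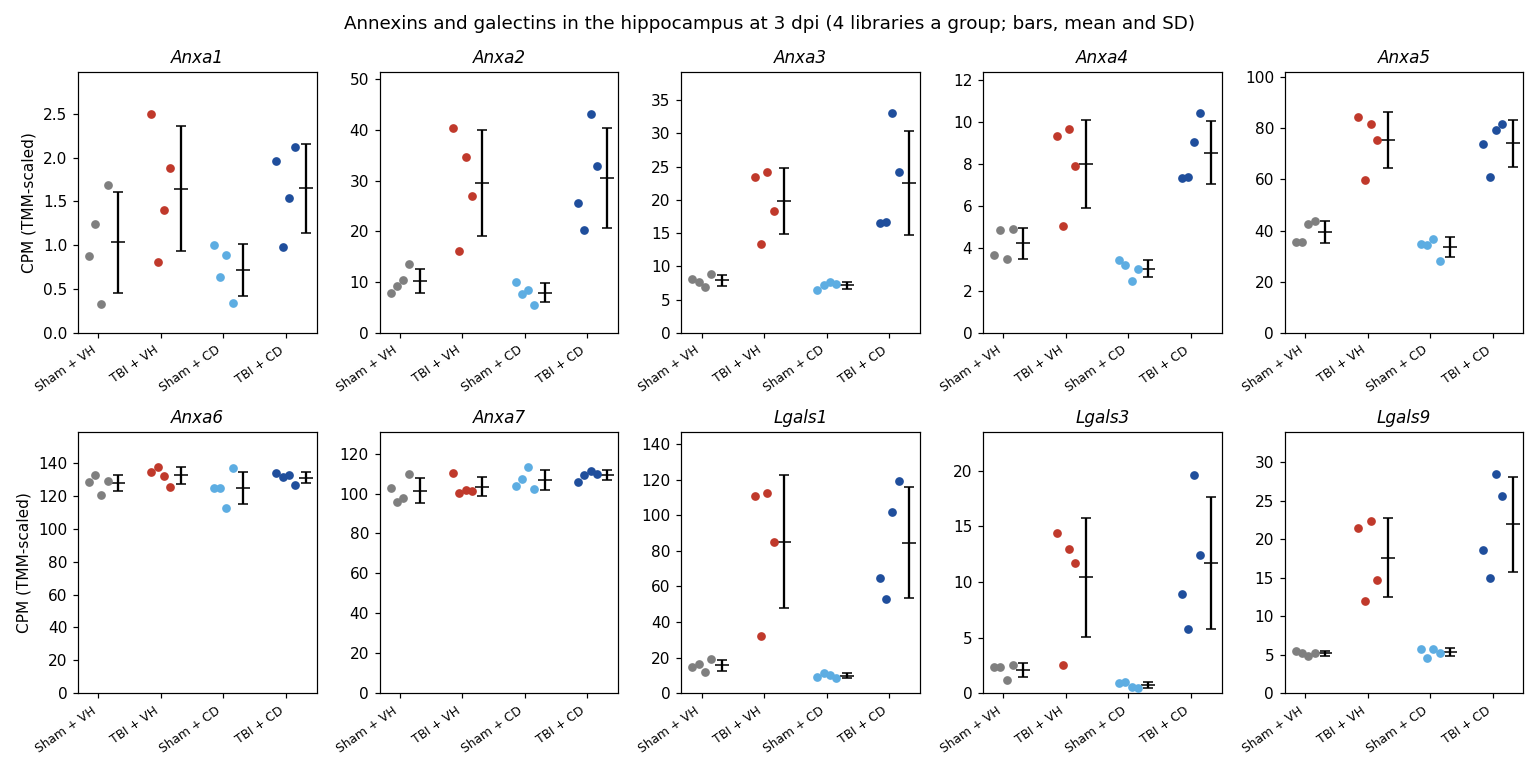
CPM of each member in the 16 hippocampal libraries at 3 dpi, by group. Points are libraries, and bars give the mean and SD of 4. The galectins and Anxa2 to Anxa5 sit higher in both TBI groups than in both Sham groups, apart from Lgals3, whose lowest TBI + VH library is within the Sham + VH range, and Anxa6 and Anxa7 lie at like levels in all groups.

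Lgals1, a small secreted galectin that crosslinks surface glycoproteins, had the largest change of this comparison among the members. Its Sham + VH libraries were at 15, 16.6, 11.6 and 19.4 CPM and its TBI + VH libraries at 111.1, 32.2, 112.4 and 85.1 CPM. Every injured library was above every sham library, and replicate 2 of TBI + VH was far below the other injured ones. The log2 fold change was 2.45 ± 0.32 (SE; adjusted p = 3.72e-05). On the per-length scale within this region Lgals1 went from 17.3 CPM per kb, the third in the family, to 94.4 ± 41.6 CPM per kb, the highest mean of the 10 in TBI + VH, with a wide spread between libraries.

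Lgals3, the chimera-type galectin that marks damaged lysosomes and phagocytic microglia, was at 2.39, 2.33, 1.15 and 2.56 CPM in Sham + VH libraries and 14.5, 2.52, 13 and 11.7 CPM in TBI + VH libraries. The lowest injured library, replicate 2, fell within the sham range, and the other injured libraries were well above it. The log2 fold change was 2.31 ± 0.45 (adjusted p = 0.00154). Lgals9, a tandem-repeat galectin and a ligand of the receptor Tim-3, was at 5.47, 5.20, 4.80 and 5.23 CPM in Sham + VH libraries and 21.4, 12, 22.4 and 14.7 CPM in TBI + VH libraries. Its sham libraries were close together, and all injured libraries were above the highest of them. The log2 fold change was 1.77 ± 0.21 (adjusted p = 1.11e-05).

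Among the annexins, Anxa2, which forms a complex with S100a10 at the plasma membrane, changed most. Its Sham + VH libraries were at 7.82, 9.15, 10.4 and 13.5 CPM and its TBI + VH libraries at 40.4, 16.1, 34.7 and 27.0 CPM, with no overlap. The log2 fold change was 1.53 ± 0.27 (adjusted p = 0.000633). Anxa3, found in microglia and other phagocytes, was at 8.10, 7.61, 6.97 and 8.89 CPM in Sham + VH libraries and 23.5, 13.4, 24.1 and 18.3 CPM in TBI + VH libraries, a log2 fold change of 1.33 ± 0.21 (adjusted p = 0.000205). Its groups were also apart.

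Anxa4, which is abundant in secretory epithelia, was at 3.71, 4.87, 3.48 and 4.90 CPM in Sham + VH libraries and 9.33, 5.08, 9.64 and 7.88 CPM in TBI + VH libraries. The groups did not overlap, although replicate 2 of TBI + VH came close to the highest sham library, and the log2 fold change was 0.92 ± 0.19 (adjusted p = 0.00229). Anxa5 was at 35.6, 35.6, 42.4 and 43.7 CPM in Sham + VH libraries and 84.5, 59.9, 81.7 and 75.2 CPM in TBI + VH libraries, a log2 fold change of 0.94 ± 0.11 (adjusted p = 1.79e-05). Although its fold change was smaller than that of the galectins, Anxa5 libraries were tightly grouped and its SE was the smallest of the 7.

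The other annexins gave no call. Anxa1, a glucocorticoid-induced annexin and ligand of formyl peptide receptors, was low, at 0.878, 1.25, 0.328 and 1.68 CPM in Sham + VH libraries and 2.50, 0.805, 1.41 and 1.88 CPM in TBI + VH libraries. The groups overlapped and the log2 fold change was 0.67 ± 0.41 (adjusted p = 0.331). Anxa6 had means of 127.8 ± 5.04 and 132.5 ± 5.19 CPM (SD, n = 4), a log2 fold change of 0.05 ± 0.05, and Anxa7 had means of 101.5 ± 6.23 and 103.5 ± 4.60 CPM, a log2 fold change of 0.03 ± 0.05.

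The injury response was next examined in the candesartan arm. Against Sham + CD, 8 members were called higher in TBI + CD, where 14.4% of all genes tested were. Anxa1 was the member added, at a log2 fold change of 1.20 ± 0.43 (adjusted p = 0.0407) with overlapping groups, and its call was lost in 6 of the 16 fits that left out 1 library. Against the vehicle sham, 7 members were called higher against a background of 10.3%, and they were the same 7 genes as in the vehicle arm. The median log2 fold change of the members was 1.57 against Sham + CD and 1.26 against Sham + VH, with medians over all genes of -0.0024 and -0.018. The groups did not overlap for 7 members in either comparison, where 17.8% of all genes were higher in every TBI + CD library than in every Sham + CD library and 13% than in every Sham + VH library. The TBI + CD libraries are shared by these comparisons, and the Sham + VH libraries by the second and the vehicle comparison.

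Lgals1 was at 64.5, 53.2, 101.6 and 119.5 CPM in TBI + CD and 9.12, 11.4, 10.2 and 8.73 CPM in Sham + CD, a log2 fold change of 3.10 ± 0.34 (adjusted p = 3.38e-06). Lgals3 was at 8.95, 5.76, 19.6 and 12.4 CPM in TBI + CD and 0.958, 1.04, 0.545 and 0.469 CPM in Sham + CD, 3.94 ± 0.52 on the log2 scale (adjusted p = 2.34e-05). Lgals9 was at 18.6, 15, 28.5 and 25.6 CPM in TBI + CD and 5.70, 4.61, 5.75 and 5.28 CPM in Sham + CD, a log2 fold change of 2.04 ± 0.21 (adjusted p = 1.61e-06). All 3 galectins were apart between these groups, and the spread among the injured libraries was larger than that among the sham libraries. The annexins Anxa2, Anxa3, Anxa4 and Anxa5 had log2 fold changes of 1.95 ± 0.28, 1.66 ± 0.21, 1.48 ± 0.19 and 1.14 ± 0.12 in the same comparison. Anxa6 and Anxa7 again did not pass, at 0.07 ± 0.05 and 0.03 ± 0.05.

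Candesartan itself was examined within sham and within injured mice. No member was called between Sham + CD and Sham + VH by edgeR's quasi-likelihood test or by DESeq2, with 2 members at an unadjusted p below 0.05, where 1.5% of all genes were called. Lgals3 had means of 0.754 ± 0.29 CPM in Sham + CD and 2.11 ± 0.65 CPM in Sham + VH (SD, n = 4), with every Sham + CD library lower, and the log2 difference was -1.47 ± 0.57 (adjusted p = 0.22). Lgals1 at -0.66 (adjusted p = 0.389) and Anxa4 at -0.48 (adjusted p = 0.257) were also lower in every Sham + CD library, against 4.61% of all genes that were. When only the 8 libraries of these groups were fitted, Lgals1 and Lgals3 were called lower, with adjusted p of 0.047 and 0.0412. The share of all genes called in that fit is not given here, so these calls have no background beside them.

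The choroid plexus markers moved between the same groups. Of the 10 markers, 9 were called lower in Sham + CD, and their sum over the choroid plexus epithelium list was 41.5 to 92.3 CPM in Sham + CD against 6527, 4209, 177.0 and 4479 CPM in the Sham + VH libraries in order of replicate. Replicate 3 of Sham + VH, the library with 177.0 CPM, was the lowest of its group for 7 of the 10 members. These were Lgals3, Lgals1 and Anxa4, and also Anxa1, Anxa3, Anxa6 and Lgals9. The plot of galectins beside marker sums shows this for Lgals3. In TBI + VH all 10 markers were called lower than in Sham + VH, at 7.87 to 145.6 CPM, while the sum ranged from 11.7 to 2600 CPM in TBI + CD. With a choroid plexus score as covariate in the fit, Anxa5, Lgals1 and Lgals9 stayed called in TBI + VH against Sham + VH, and Anxa2, Anxa3, Anxa4 and Lgals3 lost their calls, at smaller log2 fold changes of 1.16, 1.0, 0.84 and 1.94 with adjusted p of 0.115, 0.0738, 0.129 and 0.136. With that covariate the 7 calls of TBI + CD against Sham + VH held, with adjusted p of 0.000135 to 0.0258. In TBI + CD against Sham + CD 7 of the 8 held, and Anxa1 lost its call, at 1.07 (adjusted p = 0.0667). In Sham + CD against Sham + VH no member was called with that covariate by edgeR's quasi-likelihood test. The log2 differences there were -1.82 for Lgals3, -0.825 for Lgals1 and -0.55 for Anxa4, with adjusted p of 0.701, 0.723 and 0.701. The cause of the sham differences was not tested.

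No member was called between TBI + CD and TBI + VH in the hippocampus at 3 dpi by edgeR's quasi-likelihood test or by DESeq2, with none at an unadjusted p below 0.05, and edgeR called 0% of all genes. The largest difference was that of Lgals9, at 0.31 ± 0.19 on the log2 scale, and Lgals1 differed by -0.012 ± 0.29. For the interaction, the injury change in candesartan mice minus that in vehicle mice, no member was called by either tool, 2 had an unadjusted p below 0.05, and edgeR called 0% of all genes. Lgals3 had the largest interaction at 1.63 ± 0.70 (adjusted p = 0.314) and Anxa4 was at 0.57 ± 0.27 (adjusted p = 0.376).

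Markers of some cell types were called higher after injury, and those of others were not. The lists for fibroblasts and meninges, ependyma, oligodendrocytes, neurons and blood are not described here. The 8 microglial markers, Tmem119, P2ry12, Cx3cr1, Csf1r, C1qa, C1qb, Aif1 and Trem2, were called higher for 8 of 8 in both arms, with sums of 281.2 to 301.4 CPM for Sham + VH, 659.5 to 1063 CPM for TBI + VH, 271.8 to 302.7 CPM in Sham + CD and 753.6 to 1122 CPM in TBI + CD. The 8 markers of infiltrating or border macrophages were called higher for 4 of 8 in the vehicle arm and 6 of 8 in the candesartan arm, with sums of 3.20 to 5.63 CPM in Sham + VH libraries and 6.80 to 17.9 CPM in TBI + VH libraries. Of the 6 astrocyte markers, 5 were called higher in both arms, from 3782 to 4567 CPM in Sham + VH libraries to 7090 to 9303 CPM in TBI + VH libraries. None of the neutrophil, T cell or pericyte markers was called in either arm, with neutrophil sums of 1.73 to 2.31 CPM and T cell sums of 0.332 to 0.542 CPM in TBI + VH, where 1 marker of each list was at 0 in all 4 libraries. Of the 6 endothelial markers, none was called in the vehicle arm and 2 were called higher in the candesartan arm. The part of these cell types in the members' changes was not tested.

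**Figure D3:**
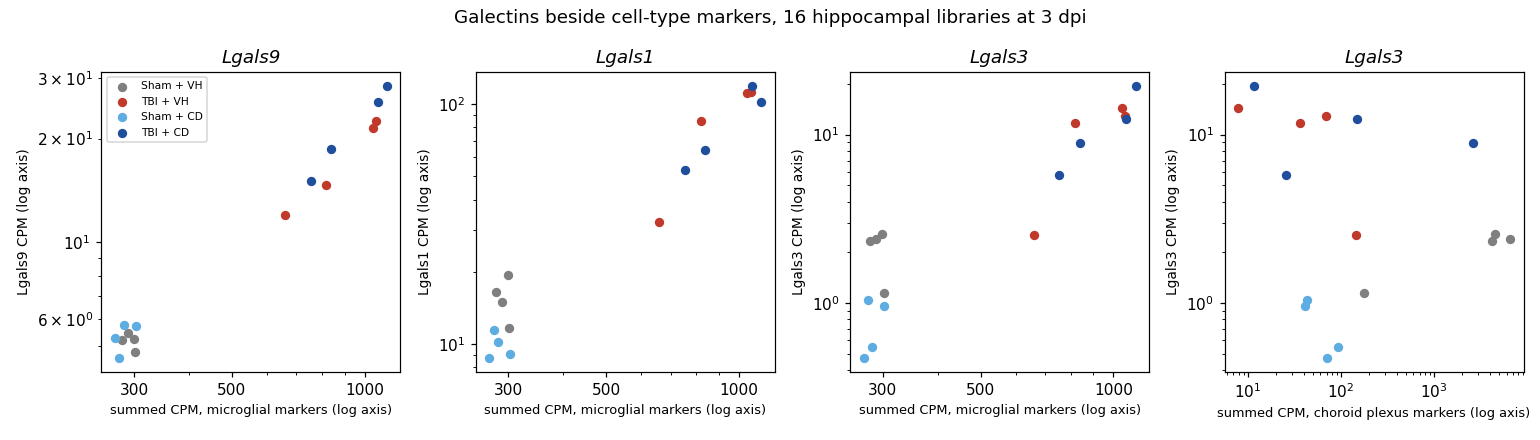
Galectin CPM against summed marker CPM in the 16 hippocampal libraries at 3 dpi, both on log axes, coloured by group. Lgals9, Lgals1 and Lgals3 are shown beside the microglial marker sum, and Lgals3 also beside the choroid plexus sum, where the Sham + VH library at 177.0 CPM has the lowest Lgals3 of its group.

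Other genes of these pathways were described by the lists of partners and receptors and of other family members, also chosen with earlier results known. Of 14 partners and receptors, 12 were tested and 9 were called higher in TBI + VH against Sham + VH in the hippocampus at 3 dpi, beside 8.99% of all genes, with a median log2 fold change of 1.57, and Fpr1 and Fpr2, receptors for Anxa1, were too low to be tested. The S100 proteins that dock to annexins were among them, with S100a4 at 3.90 ± 0.36, S100a6 at 2.93 ± 0.25, S100a11 at 2.18 ± 0.22 and S100a10 at 1.37 ± 0.18 on the log2 scale. S100a10, the partner of Anxa2, went from a mean of 11.9 to 30.6 CPM, and Ahnak, a scaffold of that complex, rose by 0.86 ± 0.16. Among receptors and ligands of galectins, Havcr2, which encodes Tim-3, rose by 1.78 ± 0.20, Cd44 by 2.73 ± 0.37, Ptprc, which encodes CD45, by 1.99 ± 0.22 and Lgals3bp by 0.94 ± 0.25. Dysf, a membrane repair protein, and Nrp1 did not pass, and Plat, the tissue plasminogen activator bound by the Anxa2 complex, was at 0.23 ± 0.06 (adjusted p = 0.0219), below the fold threshold. Against Sham + CD, 10 of the 12 were called higher in TBI + CD, beside 14.4% of all genes, and Dysf was among them at 0.81 ± 0.22.

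The other annexins and galectins gave no call in these comparisons. Of 12 listed by name, 7 were tested (Anxa8, Anxa9, Anxa11, Lgals4, Lgals8, Lgals12 and Lgalsl), and edgeR's quasi-likelihood test called 0 of 7 in TBI + VH against Sham + VH, with a median log2 fold change of 0.02. Anxa11 was at means of 39.7 and 35.4 CPM and Lgals8, a galectin of damaged vesicles, at 25.8 and 28.9 CPM in Sham + VH and TBI + VH. Lgals8 had a log2 fold change of 0.26 ± 0.08 in TBI + CD against Sham + CD (adjusted p = 0.0188), below the fold threshold.

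The thalamus and hypothalamus were then compared in the same way. In the thalamus at 3 dpi no member was called in TBI + VH against Sham + VH by edgeR's quasi-likelihood test, with 2 at an unadjusted p below 0.05, where 0.298% of all genes were called. DESeq2 called those 2, Anxa3 and Lgals9, and the share of all genes that DESeq2 called is not given here. Anxa3 was at 8.02, 6.16, 6.65 and 6.11 CPM in Sham + VH libraries and 10.9, 9.45, 9.04 and 8.26 CPM in TBI + VH libraries, every injured library being above every sham library, with a log2 fold change of 0.48 ± 0.10 (adjusted p = 0.0776), where 1.55% of all genes were apart in that direction. Lgals9 was at 5.49, 3.88, 3.57 and 4.26 CPM in Sham + VH libraries and 8.64, 8.26, 6.50 and 5.10 CPM in TBI + VH libraries, at 0.73 ± 0.17 (adjusted p = 0.117), with 1 injured library inside the sham range.

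In TBI + CD against Sham + VH in the thalamus, Anxa3 was the member called by edgeR, at 9.66, 9.12, 10.3 and 9.72 CPM in TBI + CD and a log2 fold change of 0.53 ± 0.11 (adjusted p = 0.036), against 0.418% of all genes. This call was lost in 11 of the 16 fits that left out 1 library. Lgals9 had 0.79 ± 0.17 in the same comparison (adjusted p = 0.061) and was called by DESeq2 (adjusted p = 0.00351), and both genes were higher in every TBI + CD library than in every Sham + VH library, against 2.64% of all genes. Against Sham + CD no member was called in TBI + CD by edgeR or DESeq2, with 3 at an unadjusted p below 0.05 and 0.179% of all genes called. Anxa3 at 0.43 ± 0.10 and Lgals9 at 0.62 ± 0.17 were again apart there, where 2.83% of all genes were. No thalamic member was called between Sham + CD and Sham + VH, with 1 at an unadjusted p below 0.05, or between TBI + CD and TBI + VH, with none, by edgeR or DESeq2, and edgeR called 0% of all genes in both. The 1 was Lgals3, at -0.73 ± 0.26 (adjusted p = 0.615) and lower in every Sham + CD library, against 2.03% of all genes. Lgals1, the member with the largest vehicle change in the hippocampus, had means of 10.2 ± 3.72 CPM in Sham + VH libraries and 7.94 ± 1.17 CPM in TBI + VH libraries in the thalamus, with overlapping groups. The microglial markers were called higher for 7 of 8 in the vehicle arm of the thalamus, from 210.1 to 259.2 CPM in Sham + VH libraries to 314.6 to 400.9 CPM in TBI + VH libraries.

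In the hypothalamus at 3 dpi no member was called in any comparison by edgeR's quasi-likelihood test or by DESeq2, and edgeR called 0% of all genes. In TBI + VH against Sham + VH, 1 member had an unadjusted p below 0.05, Lgals3, at 0.411, 0.567, 1.37 and 1.92 CPM in Sham + VH libraries and 2.64, 2.71, 2.50 and 1.49 CPM in TBI + VH libraries. Its groups overlapped. Over the other 4 comparisons 0 to 1 members had an unadjusted p below 0.05.

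**Figure D4:**
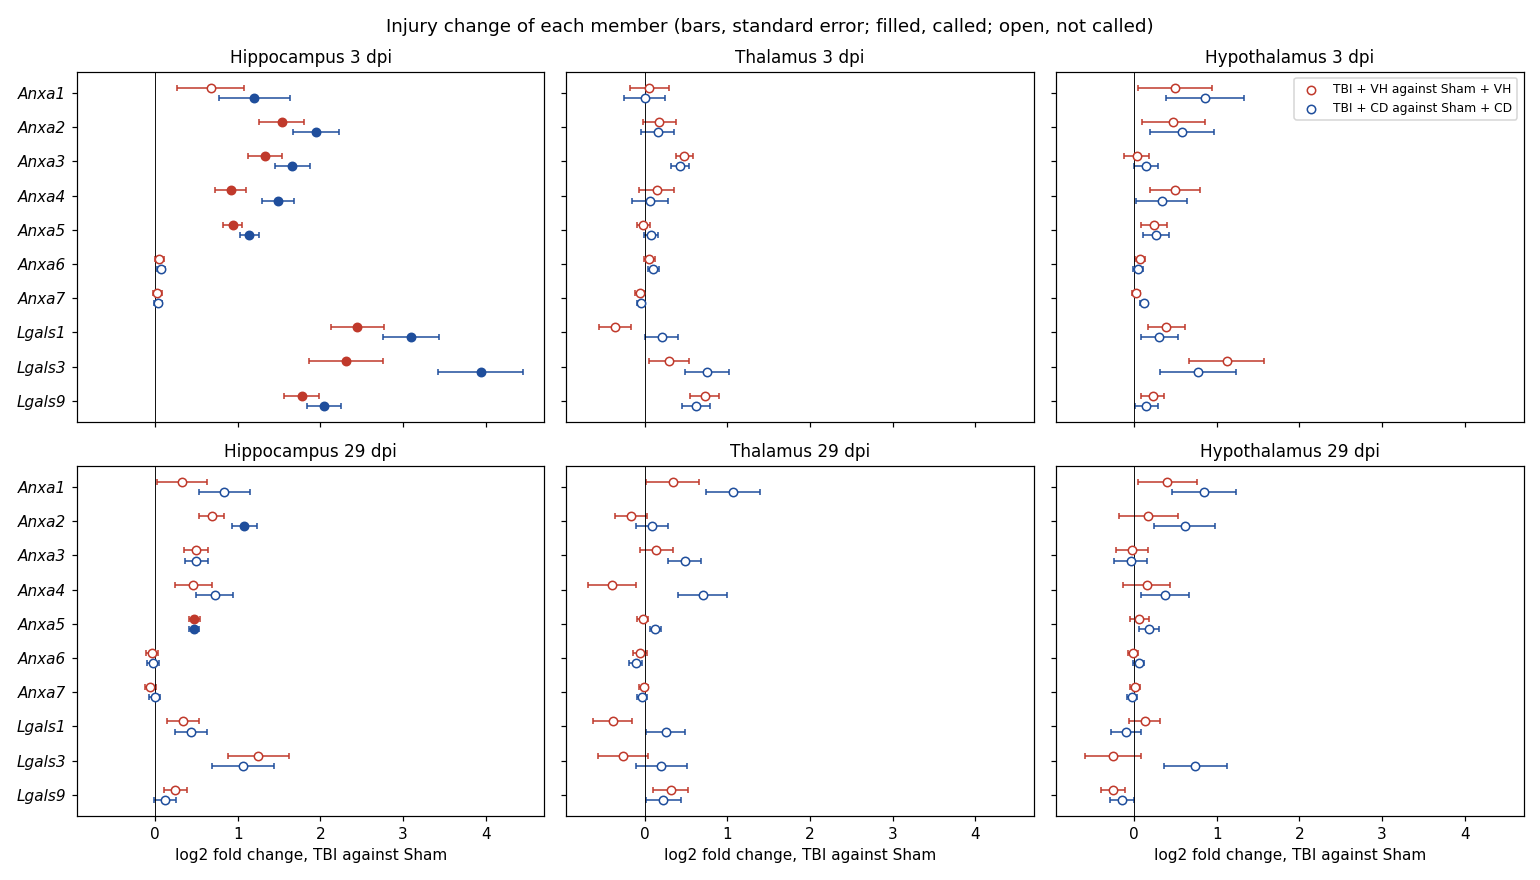
Log2 fold change of each member, TBI against Sham, in the 3 regions at 3 and 29 dpi, for the vehicle arm and the candesartan arm. Bars are standard errors, filled points were called and open points were not. Filled points fall in the hippocampus in both arms at 3 dpi, and at 29 dpi for Anxa5 in both arms and Anxa2 in the candesartan arm.

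Whether the injury change differed between regions was tested directly in the vehicle arm at 3 dpi. Against the thalamus, 4 members had a larger change in the hippocampus, where 2.68% of all genes did. They were Lgals1, larger by 2.76 ± 0.41 on the log2 scale (adjusted p = 0.000423), Lgals9 by 1.0 ± 0.26, Anxa5 by 0.91 ± 0.18 and Anxa3 by 0.81 ± 0.22. Against the hypothalamus the same 4 genes were called, against 4.12% of all genes, with Lgals1 larger by 2.02 ± 0.43 (adjusted p = 0.00497), Lgals9 by 1.51 ± 0.26, Anxa3 by 1.27 ± 0.22 and Anxa5 by 0.66 ± 0.18. Lgals3 and Anxa2 had differences of 1.97 ± 0.58 (adjusted p = 0.0721) and 1.31 ± 0.43 (adjusted p = 0.122) against the thalamus, which did not pass edgeR's quasi-likelihood test, whereas DESeq2 called Lgals3 at 1.97 (adjusted p = 0.0239). The hippocampal libraries are shared by both contrasts. Of the 24 fits that left out 1 library, Anxa3 lost its call against the thalamus in 14 and Lgals9 in 10, and Anxa5 lost its call against the hypothalamus in 10 and with replicate number as a block (adjusted p = 0.0524), while Lgals1 kept both calls in every fit. Without replicate 2 of the hippocampal TBI + VH group, Anxa2 and Lgals3 were called as well against the thalamus, 6 members in all.

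At 29 dpi fewer members were called in the hippocampus, and Anxa5 was the member called by edgeR in the vehicle arm, where DESeq2 called Anxa2 as well. Total counts were less even there, from 6663629 to 38589791 per hippocampal library at 29 dpi against 19683802 to 27452743 at 3 dpi, and the part of depth in the number of calls was not tested. In TBI + VH against Sham + VH, 1 of the 10 members was called higher, where 0.523% of all genes were, with a median log2 fold change of 0.40 over the members and -0.0069 over all genes. Anxa5 was at 49.9, 42.6, 44.8 and 44.4 CPM in Sham + VH libraries and 65.3, 58.4, 68.3 and 61.0 CPM in TBI + VH libraries. All injured libraries were above all sham libraries, and the log2 fold change was 0.47 ± 0.07 (adjusted p = 0.00109).

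Anxa2, at 10.5, 6.62, 9.03 and 9.34 CPM in Sham + VH libraries and 16.1, 13.7, 15.9 and 12.3 CPM in TBI + VH libraries, was also apart between the groups, with 0.68 ± 0.15 on the log2 scale and an adjusted p of 0.0519 by edgeR's quasi-likelihood test. It was called by DESeq2 (adjusted p = 0.00511), with no low-count filter (0.0498), with replicate number as a block (0.0488) and in 3 of the 16 fits that left out 1 library. Lgals3 was at 2.65, 0.874, 0.864 and 2.31 CPM in Sham + VH libraries and 3.56, 3.50, 5.53 and 3.70 CPM in TBI + VH libraries, at 1.25 ± 0.37 (adjusted p = 0.23). Its sham libraries fell in pairs, and the higher pair, replicates 1 and 4, had choroid plexus epithelium sums of 7230 and 4179 CPM against 192.5 and 62.9 CPM in the lower pair. With Anxa3, at 0.49 ± 0.14 (adjusted p = 0.203), 4 members were higher in every TBI + VH library, against 2.5% of all genes. With the choroid plexus score as covariate, Anxa2 at 0.74 (adjusted p = 0.0224) and Lgals3 at 1.64 (adjusted p = 0.0217) were called as well.

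**Figure D5:**
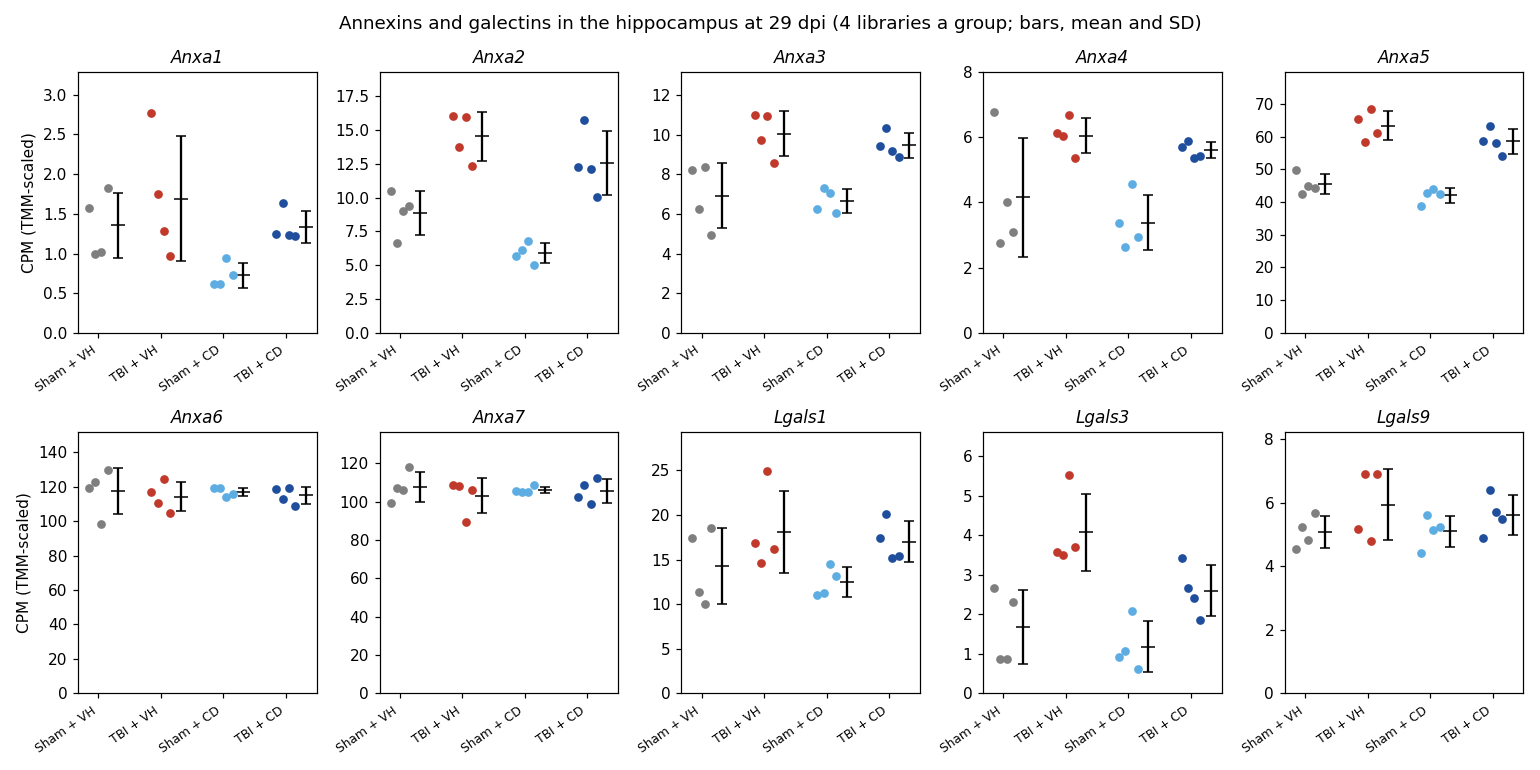
CPM of each member in the 16 hippocampal libraries at 29 dpi, by group. Points are libraries, and bars give the mean and SD of 4. Anxa5 and Anxa2 are higher in every TBI + CD library than in every Sham + CD library, and the galectins Lgals1 and Lgals9 lie far below their levels in injured mice at 3 dpi.

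In the candesartan arm at 29 dpi, Anxa2 and Anxa5 were called in TBI + CD against Sham + CD, where 0.351% of all genes were called higher. Anxa2 was at 12.3, 15.7, 12.1 and 10.1 CPM in TBI + CD and 5.65, 6.12, 6.79 and 5.03 CPM in Sham + CD, a log2 fold change of 1.08 ± 0.15 (adjusted p = 0.00227). Anxa5 was at 58.8, 63.2, 58.0 and 54.2 CPM in TBI + CD and 38.9, 42.6, 43.9 and 42.5 CPM in Sham + CD, at 0.47 ± 0.06 (adjusted p = 0.00183). Both genes were apart between the groups, and in all 6 members, with Anxa1, Anxa3, Anxa4 and Lgals1, were higher in every TBI + CD library, against 4.76% of all genes.

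Against Sham + VH, Anxa5 was the member called in TBI + CD, at 0.36 ± 0.06 (adjusted p = 0.0351), where 0.113% of all genes were called higher, and this call was lost in 10 of the 16 fits that left out 1 library. By edgeR it was also lost with replicate number as a block (adjusted p = 0.0583) and with only the 8 libraries compared (adjusted p = 0.166). No member was called between Sham + CD and Sham + VH at 29 dpi by edgeR or DESeq2, with 2 at an unadjusted p below 0.05 and 0% of all genes called by edgeR. Anxa2 had a log2 difference of -0.60 there (adjusted p = 0.941), and Anxa1, at -0.85 (adjusted p = 0.941), was lower in every Sham + CD library, as were 1.13% of all genes. Between TBI + CD and TBI + VH no member was called by either tool and none had an unadjusted p below 0.05, again with 0% of all genes called by edgeR. Lgals3 was at 3.43, 2.67, 2.41 and 1.86 CPM in TBI + CD, every library below those of TBI + VH, with a log2 difference of -0.65 (adjusted p = 0.882), where 1.79% of all genes were lower in every TBI + CD library. The interaction at 29 dpi gave no member by either tool and none at an unadjusted p below 0.05, with 0% of all genes called by edgeR.

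The partners also gave fewer calls at 29 dpi, as did all genes tested. In TBI + VH against Sham + VH 4 of the 12 tested were called higher, beside 0.523% of all genes, S100a4 at 2.0 ± 0.33, S100a6 at 1.28 ± 0.18, Cd44 at 1.10 ± 0.18 and Ptprc at 0.92 ± 0.14. Candesartan-treated injured mice had 3 calls against their shams, Ahnak, Cd44 and Ptprc, beside 0.351% of all genes. The microglial markers were called higher for 4 of 8 in the vehicle arm and 1 of 8 in the candesartan arm, with sums of 264.7 to 304.1 CPM for Sham + VH, 370.2 to 430.0 CPM for TBI + VH and 310.3 to 374.5 CPM in TBI + CD.

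The difference between the times was tested for the vehicle injury change in the hippocampus. The change was larger at 3 dpi for 2 members, where 2.2% of all genes were called in that direction. Lgals1 differed by 2.10 ± 0.44 on the log2 scale (adjusted p = 0.0161), and its TBI + VH libraries at 29 dpi were at 16.8, 14.6, 24.9 and 16.2 CPM. Lgals9 differed by 1.52 ± 0.26 (adjusted p = 0.00456), with means of 5.07 ± 0.50 CPM in Sham + VH libraries and 5.94 ± 1.12 CPM in TBI + VH libraries at 29 dpi. The differences of Anxa5, 0.47 ± 0.14 (adjusted p = 0.1), Anxa3, 0.84 ± 0.25 (adjusted p = 0.11), and Lgals3, 1.05 ± 0.63 (adjusted p = 0.65), did not pass. Without replicate 2 of TBI + VH at 3 dpi, 5 members were called, Anxa2, Anxa3 and Anxa5 being added.

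In the thalamus and hypothalamus at 29 dpi no member was called in any comparison by edgeR's quasi-likelihood test or by DESeq2, and edgeR called 0% of all genes in the thalamus. In the hypothalamus edgeR called 0.00583% of all genes, a single gene, in TBI + VH against Sham + VH. The numbers of members at an unadjusted p below 0.05 were 0 to 3 over these comparisons. Lgals3 in the hypothalamus was at 2.12, 1.81, 1.54 and 2.23 CPM in Sham + VH and 1.33, 0.496, 0.727 and 0.612 CPM in Sham + CD, every candesartan library being lower. Its log2 difference was -1.33 (adjusted p = 0.356). Anxa1 and Anxa5 were also lower in every Sham + CD library of the hypothalamus, 3 members in all, against 4.7% of all genes.

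The genes most like each member were sought over all 96 libraries, by Pearson's r of log2 CPM after the mean of each region and time was removed, among 15039 genes. These are descriptions, since the libraries share injury groups, tissue and depth. Anxa3 and Lgals9 both had Olfml3, a microglial matrix protein, as their nearest gene, at r of 0.888 and 0.918, and Anxa3 was followed by Ptpn6 and Csf1r, Lgals9 by Pld4 and Grn. Lgals1 was nearest to Ifi30 (0.912), a lysosomal thiol reductase, Dhrs1 and the cathepsin Ctsl. Anxa5 was nearest to Vim (0.929), the intermediate filament vimentin, S100a6 and Cnn3.

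Anxa2 was nearest to Anxa5 (0.919), then the actin-binding Flnc and Tagln2, and Lgals3 was nearest to Pbxip1 (0.891), Clic1 and Flnc. Anxa4 was nearest to the complement inhibitor gene Serping1 (0.830), Clic1 and Col4a6, and Anxa1 to Anxa2 (0.768), Mxra8 and Lamb2. Anxa6 and Anxa7 had no gene so close, with Ddx41 at 0.617, Unc119b and Orai3 for Anxa6 and Acp2 at 0.551, B3galt2 and Sfr1 for Anxa7. When the mean of each of the 24 groups was removed, which takes away the group differences, r was 0.860 between Anxa2 and Anxa5, 0.769 between Anxa2 and Lgals3, 0.719 between Anxa1 and Anxa2 and 0.520 between Anxa3 and Lgals9. Anxa7 stayed at or below 0.379 with every other member. These values are over 96 libraries that share composition and depth.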

How the data were processed

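Libraries were made with a stranded mRNA kit, and the authors aligned reads to mm10 with MapSplice and counted them per gene with HTSeq 0.9.1. The deposited values are raw counts per gene, in 1 table for each time point. How HTSeq treated strand and reads with several alignments is not given in the sources used here. Groups were taken from the labels, 4 numbered replicates each, which the authors selected for RNA quality. The labels do not say that the replicates came from separate mice, so p-values measure the spread between these samples. The 144 pairs of libraries within a group differed by a chi-square of 2.64 to 48.1 per degree of freedom, beyond counting noise. Whether this spread arose between mice or in preparation was not tested.

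The counts were fitted in R 4.3.3 with edgeR 4.0.16 (filterByExpr, TMM, quasi-likelihood F-test), the 16 libraries of a region and time together, and p-values were adjusted over all genes tested. The study's thresholds were kept, an adjusted p below 0.05 with a log2 fold change beyond 0.32 in size. Standard errors are the log2 fold change over the root of F. Differences between regions or times were tested as contrasts of 1 joint fit, with regions treated as independent. DESeq2 1.42.0, other scaling, filters, a replicate block, fewer libraries and a choroid plexus score (the mean log2 CPM of its 10 markers) were tried as alternatives. Gene lengths were exon unions. The edgeR script was tested on simulated data.

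The genes named are the 10 members, the listed partners and family members by counts (with values for those called in the first hippocampal comparison), and the 3 genes most like each member. The members and the lists were chosen with earlier results of these data known. A few partner values outside that rule, such as those of Dysf, Plat, Anxa11 and Lgals8, were chosen after they were seen.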

Additional observations from a re-analysis of the deposited data

Results flagged for a closer look

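In 11 of 240 groups of 4 libraries, 1 library lay far from the other 3 of its group for a member, where chance alone gives about 1 in 20 groups. In the hippocampus at 3 dpi these were Lgals3 at 1.15 CPM in Sham + VH replicate 3, beside 2.33 to 2.56 CPM in the others, and Anxa7 at 110.4 CPM in TBI + VH replicate 1, beside 100.5 to 102.0 CPM. At 29 dpi in the hippocampus, TBI + VH replicate 3 was low for Anxa7 at 89.5 CPM (others 106.1 to 108.7) and high for Lgals3 at 5.53 CPM (others 3.50 to 3.70), and TBI + CD replicate 2 was high for Anxa1 at 1.64 CPM (others 1.22 to 1.24). In the thalamus, Anxa6 was at 113.9 CPM in Sham + VH replicate 4 at 3 dpi (others 141.2 to 144.5). At 29 dpi, TBI + CD replicate 4 of the thalamus was high for Anxa4 at 7.55 CPM (others 2.84 to 3.19) and for Lgals1 at 17.0 CPM (others 8.23 to 9.04), and its choroid plexus epithelium markers summed to 1425 CPM against 28.6 to 65.6 CPM in the others of its group. In the hypothalamus, Sham + VH replicate 4 was at 115.3 CPM for Anxa6 at 3 dpi (others 95.8 to 96.7), TBI + VH replicate 4 at 1.49 CPM for Lgals3 at 3 dpi (others 2.50 to 2.71), and TBI + CD replicate 1 at 9.29 CPM for Anxa3 at 29 dpi (others 6.24 to 6.56).

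The injury change of the vehicle arm differed between regions or times for 4 members, each by a test of the difference itself. The hippocampal change at 3 dpi exceeded the thalamic one on the log2 scale by 0.81 for Anxa3, 0.91 for Anxa5, 2.76 for Lgals1 and 1.0 for Lgals9. It exceeded the hypothalamic one by 1.27 for Anxa3, 0.66 for Anxa5, 2.02 for Lgals1 and 1.51 for Lgals9. In the hippocampus the change at 3 dpi exceeded that at 29 dpi by 2.10 for Lgals1 and 1.52 for Lgals9.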

How the results depend on the processing

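Of 8947 values of single members under the alternatives, 8808 kept their side of the threshold, 106 lost a call and 33 gained one. The sign changed in 318 of them, all for results with no call, with log2 values up to 0.54 in size, and no called result reversed. With the choroid plexus score, Anxa1 in the hippocampal interaction at 3 dpi went from 0.53 to -0.22. None of 480 values, the group means under other scalings, moved beyond the SD. In the hippocampus at 3 dpi the 7 members called in TBI + VH against Sham + VH became 3 with the choroid plexus score as covariate, and the 0 called in Sham + CD against Sham + VH became 2 with only the 8 libraries compared. In the thalamus at 3 dpi DESeq2 called 2 in TBI + VH against Sham + VH, where edgeR's quasi-likelihood test called 0, and 2 in TBI + CD against Sham + VH, where it called 1, which became 0 with only the 8 libraries compared. In the hippocampus at 29 dpi the 1 called in TBI + VH against Sham + VH became 2 with DESeq2 and with no low-count filter, and 3 with the choroid plexus score. With only the 8 libraries compared, the 1 called in TBI + CD against Sham + VH became 0 and the 2 called in TBI + CD against Sham + CD became 3, Anxa3 being added (adjusted p = 0.0447). The shares of all genes called under the alternatives are not given here, and the cause of these changes was not tested.

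With replicate number as a block, the count at 29 dpi in the hippocampus was 2 for TBI + VH against Sham + VH and 0 for TBI + CD against Sham + VH. The count of larger hippocampal changes than in the hypothalamus went from 4 to 3, and the other injury and drug counts stayed. Between hippocampus and thalamus in Sham + VH at 3 dpi, Lgals1 lost its call and Anxa2 gained one. Correlations between same-numbered libraries had medians of 0.004 to 0.129 over the 6 region and time sets. In the thalamus at 3 dpi the median was 0.129, against -0.026 for other numbers, and 15 of 24 pairs were above 0.1. These values compare groups within a region, and whether the numbers pair samples there or across regions cannot be told from them.

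With 1 library left out in turn, the hippocampal counts at 3 dpi were 7 to 7 for both comparisons with Sham + VH and 7 to 8 for TBI + CD against Sham + CD. In the thalamus at 3 dpi they were 0 to 2 for TBI + VH and 0 to 2 for TBI + CD against Sham + VH. In the hippocampus at 29 dpi they were 1 to 2, 0 to 1 and 2 to 2 in the same order as above. The differences of injury change gave 2 to 6 against the thalamus, 3 to 4 against the hypothalamus and 2 to 5 between times. The regional counts were 2 to 6, 6 to 8 and 2 to 4 at 3 dpi and 4 to 5, 5 to 6 and 3 to 3 at 29 dpi. The other counts stayed at 0. Counts of Anxa1 and Lgals3 were low and their standard errors were wide, and a link between these was not tested.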
